A study of Mus musculus with 24 samples.

Results

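This account follows 10 genes that cut, protect or crosslink the extracellular matrix of the heart, or signal to the cells that make it: the proteases Mmp2 and Mmp14, the protease inhibitors Timp1, Timp2, Timp3 and Timp4, the ligands Tgfb1, Tgfb2 and Tgfb3, and the crosslinking enzyme Lox. They were taken from the deposited count table by gene symbol. All 10 of 10 were found there, among 20961 genes in all, and all 10 passed the filter on low counts that left 17203 genes to test. RNA of whole heart tissue was sequenced from male and female mice of NZO/HlLtJ, a polygenic strain that becomes obese, CAST/EiJ, an inbred strain of wild castaneus origin, and C57BL/6J, a common laboratory strain. Within each strain and sex, mice ate a 44% fat diet (high in fat and sugar) or a 10% fat diet (the control), both with added fiber, from week 6 of age until tissue was taken at week 15. Every animal is labelled wild type and given no other treatment, so each strain difference compares whole genomes and not a single allele. The 12 groups of strain, sex and diet held 2 libraries each, so a strain difference set 8 libraries against 8 and a diet effect within a strain set 4 against 4. The study asked how strain and diet act together in mice used to model type 2 diabetes.

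Matrix metalloproteinases are secreted or membrane-bound enzymes that cut collagens and other matrix proteins. MMP14 sits at the cell surface, where it activates the MMP2 proenzyme with TIMP2 as an adaptor, and the TIMP proteins block the active enzymes. The TGF-beta ligands are secreted in a latent form bound to the matrix, drive heart fibroblasts to make collagen once released, and raise the expression of matrix genes and inhibitors, while lysyl oxidase links collagen and elastin fibres into a stiff network.

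Total counts per library lay between 30205073 and 52254058. Levels are given as CPM, counts per 1000000 of the scaled library total, and differences as log2 fold changes with standard errors (SE). Calls rest on edgeR's quasi-likelihood test with Benjamini-Hochberg adjustment over all 17203 genes, at a threshold of 0.05, and every adjusted p below comes from that test unless another is named. The leading axis of variation among the libraries held 60.1% of the variance. Whether both libraries of a group are from different animals is not stated in the labels, so the p-values speak only of sample-to-sample spread, which may be technical. The numbers in the sample titles fall into 3 ranges that may mark separate processing rounds. NZO/HlLtJ has no library in the first range, so strain differences within single ranges are given beside the pooled values. Each such value comes from 1 matched pair of groups, except that CAST/EiJ against C57BL/6J has 4 in the first range. They reuse libraries of the pooled comparison and carry no test. The build named for the counts is GRCm38, the C57BL/6J reference. How reads with variants of CAST/EiJ or NZO/HlLtJ were counted is not given in the sources used here. The part of such reads in the strain differences was not tested. Cardiomyocyte markers dominated every library, at 63330 to 78370 CPM for 10 genes together, which fits the labelled tissue.

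Per kilobase of annotated exon, Timp3, Timp2 and Mmp2 stood at the top of the 10 genes. Averaged over the 24 libraries, Timp3 reached 37.1 ± 10.6 CPM per kb (SD), Timp2 25.5 ± 4.64 and Mmp2 20.8 ± 4.36. Timp4 followed at 6.25 ± 2.39, Tgfb3 at 5.60 ± 0.67 and Tgfb1 at 3.71 ± 0.47. Mmp14, Timp1, Tgfb2 and Lox were lowest, at 2.51 ± 0.58, 2.17 ± 0.71, 1.70 ± 0.26 and 1.28 ± 0.33 CPM per kb. Exon lengths pool all exons that GENCODE annotates for a gene, so ranks per kb depend on them. In GENCODE, Mmp14 ends at 54445364, beyond its end at 54441265 in the deposited annotation. The Mmp14 value per kb, and its rank, may therefore be too low. The ranges of Mmp14 and Timp1 overlapped, as did those of Tgfb2 and Lox. On GRCm38 the proteases lie at chr8:92827328-92853417 (Mmp2) and chr14:54431612-54441265 (Mmp14). The inhibitors lie at chrX:20870166-20874735 (Timp1), chr11:118301069-118355740 (Timp2), chr10:86300372-86349506 (Timp3) and chr6:115241892-115252205 (Timp4), and Timp1, Timp3 and Timp4 each sit inside a synapsin gene on the opposite strand. The ligands lie at chr7:25687002-25705077 (Tgfb1), chr1:186622792-186705989 (Tgfb2) and chr12:86056744-86079041 (Tgfb3). Counts behind these levels were large for most members: Timp1 had the fewest, 28 to 147 per library, and every other member had at least 134 in each library.

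**Figure D1:**
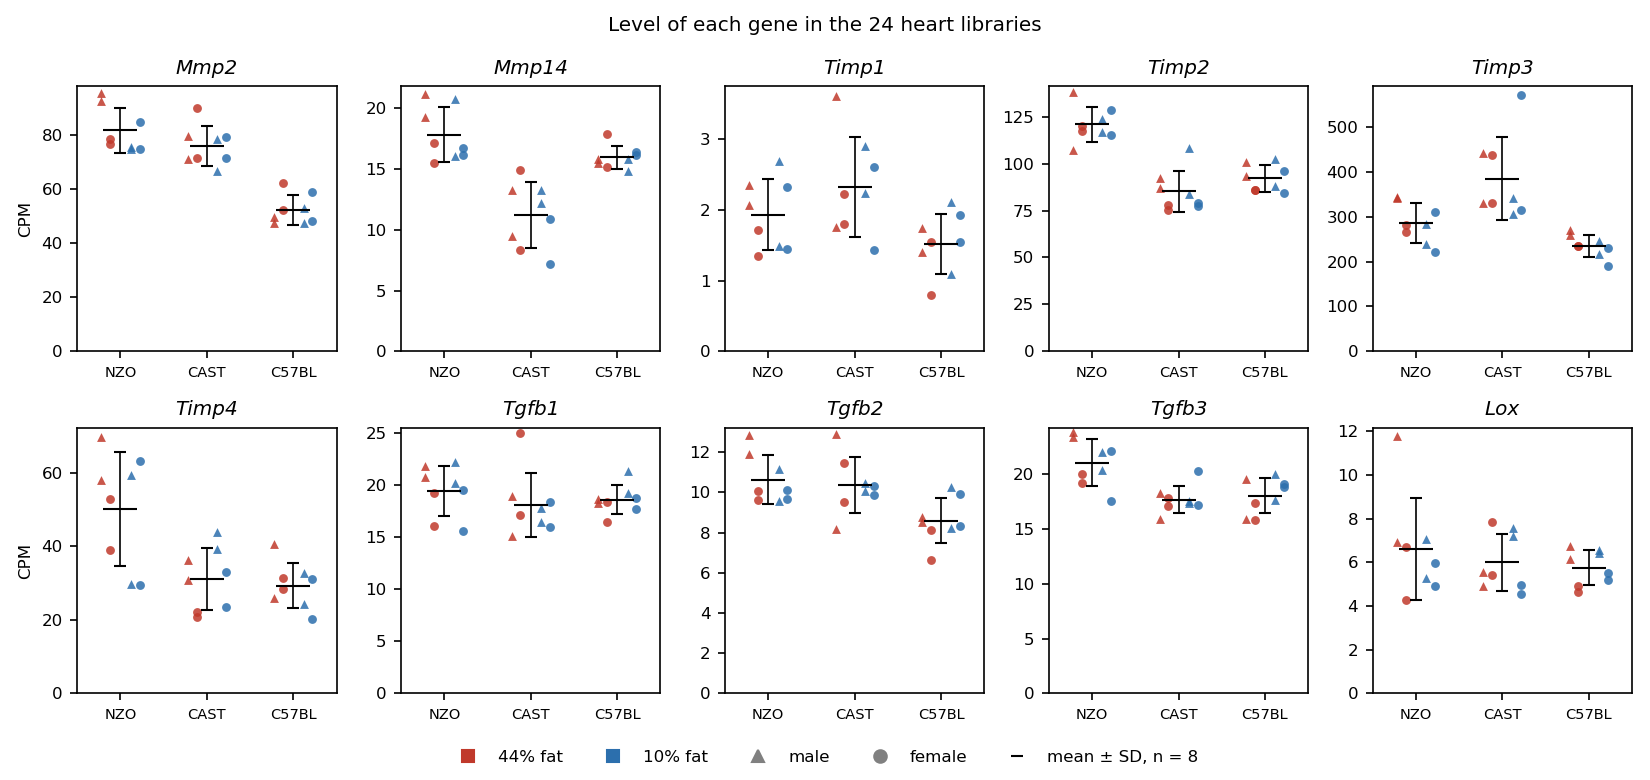
Level in CPM (y axis, from 0) of each of the 10 genes in the 24 heart libraries, by strain, with 44% fat in red, 10% fat in blue, males as triangles and females as circles. Bars give the mean ± SD over the 8 libraries of a strain. The NZO/HlLtJ points for Mmp2 and Timp2 and the CAST/EiJ points for Timp3 lie above all C57BL/6J points, while red and blue points mix in each panel.

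Each of the 3 strain comparisons called 5 of the 10 genes, and no diet effect on any of the 10 was detectable. In NZO/HlLtJ, 5 of 10 members were higher than in C57BL/6J and 0 were lower, where 35.5% of all genes tested were called, 17.9% higher and 17.6% lower. In CAST/EiJ, 4 were higher and 1 lower than in C57BL/6J, against a background of 58.8%, with 29.1% higher and 29.7% lower. Between NZO/HlLtJ and CAST/EiJ, 4 were higher and 1 lower in NZO/HlLtJ, against 60.3%, with 30.5% higher and 29.8% lower. Counted in either direction, the shares of members called in the 2 comparisons with CAST/EiJ were no higher than 58.8% and 60.3%. By direction, the shares called higher were above 29.1% and 30.5%, and those called lower were below 29.7% and 29.8%. The median log2 change over the 10 members was 0.29 in NZO/HlLtJ over C57BL/6J, where all 10 changes were positive and the median of all genes was 0. It was 0.05 in CAST/EiJ over C57BL/6J and 0.11 in NZO/HlLtJ over CAST/EiJ. The 2 comparisons with C57BL/6J share its 8 libraries, and the 10 members share all libraries, so these values are not independent.

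**Figure D2:**
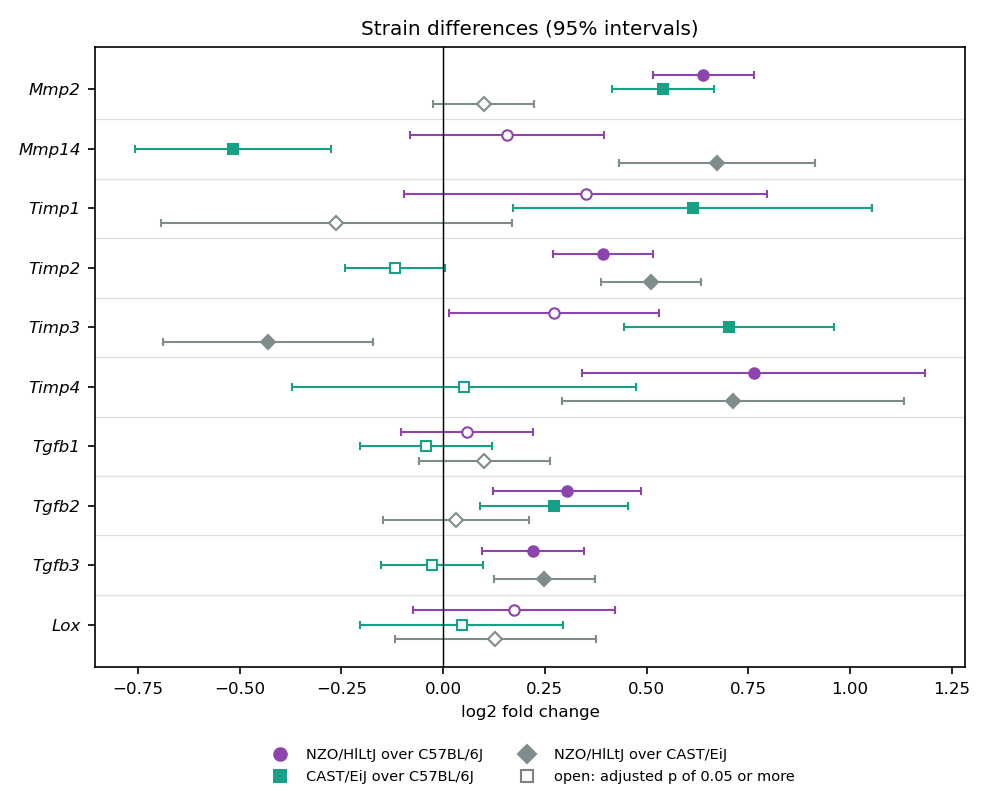
Log2 fold change (x axis) of each gene in NZO/HlLtJ over C57BL/6J (purple circles), CAST/EiJ over C57BL/6J (green squares) and NZO/HlLtJ over CAST/EiJ (grey diamonds), with 95% intervals from the edgeR fit. Filled symbols have an adjusted p under 0.05; Mmp2 is filled and positive in both comparisons with C57BL/6J, and Tgfb1 and Lox are open in every one.

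Mmp2, a gelatinase that cuts denatured collagen and basement membrane, was the member that separated C57BL/6J most cleanly from the other strains. NZO/HlLtJ hearts had 74.8 to 95.8 CPM (median 77.7), CAST/EiJ hearts 66.7 to 90.1 (median 75.1) and C57BL/6J hearts 47.4 to 62.2 (median 51.0). Each NZO/HlLtJ and each CAST/EiJ library lay above all 8 C57BL/6J libraries. The log2 change was 0.64 (SE 0.059, adjusted p = 1.017e-07) in NZO/HlLtJ over C57BL/6J, a 1.56-fold level. It was 0.54 (SE 0.059, adjusted p = 3.248e-07) in CAST/EiJ over C57BL/6J. Within single title ranges the first of these was 0.92 and 0.56, and the second 0.57, 0.33 and 0.44. Between NZO/HlLtJ and CAST/EiJ the difference was 0.10 (95% interval -0.02 to 0.22, adjusted p = 0.1532) and was not called, although it passed without female CAST/EiJ 44% fat replicate 1 (0.14, adjusted p = 0.03526) and with the title range in the model (0.16, adjusted p = 0.00934).

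Mmp14, the membrane-anchored activator of MMP2, was instead low in CAST/EiJ. It reached 15.5 to 21.1 CPM (median 16.9) in NZO/HlLtJ, 7.19 to 14.9 (median 11.5) in CAST/EiJ and 14.8 to 17.8 (median 15.8) in C57BL/6J. In 7 of 8 CAST/EiJ libraries it was below every C57BL/6J library, and all 8 NZO/HlLtJ libraries were above all CAST/EiJ libraries. It fell by 0.52 on the log2 scale in CAST/EiJ relative to C57BL/6J (SE 0.11, adjusted p = 0.0009666), and within single ranges by 0.30, 0.37 and 0.82. It was higher by 0.67 in NZO/HlLtJ than in CAST/EiJ (SE 0.11, adjusted p = 8.038e-05), and within single ranges by 1.14 and 0.92. The value of 1.14 rests on a single CAST/EiJ library, female 10% fat replicate 2, the lowest of its strain at 7.19 CPM. NZO/HlLtJ and C57BL/6J differed by 0.16 (95% interval -0.08 to 0.39, adjusted p = 0.3105), a difference called when the title range entered the model (0.29, adjusted p = 0.03486). In CAST/EiJ, Mmp2 was thus higher and Mmp14 lower than in C57BL/6J.

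Among the inhibitors, each strain pair differed in another set of genes. Timp2, which both inhibits metalloproteinases and helps MMP14 to activate MMP2, was high in NZO/HlLtJ alone. It had 107 to 138 CPM (median 119) in NZO/HlLtJ, 75.2 to 108 (median 81.4) in CAST/EiJ and 84.3 to 103 (median 90.9) in C57BL/6J. No NZO/HlLtJ library overlapped the C57BL/6J range, and 7 of 8 lay above all CAST/EiJ libraries. The log2 change was 0.39 (SE 0.058, adjusted p = 3.268e-05) over C57BL/6J, with 0.27 and 0.47 within single ranges. It was 0.51 (SE 0.058, adjusted p = 4.751e-07) over CAST/EiJ, with 0.62 and 0.65 within ranges. The difference of CAST/EiJ from C57BL/6J was -0.12 (95% interval -0.24 to 0.0034, adjusted p = 0.08786). It became a call, with values of -0.17 to -0.12, when any of 4 libraries was left out: male CAST/EiJ 10% fat replicate 1, male C57BL/6J 10% fat replicate 2, or either male NZO/HlLtJ 44% fat library.

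Timp3, which binds to the matrix and also blocks the sheddase ADAM17 and the aggrecanase ADAMTS4, was highest in CAST/EiJ. It had 220 to 344 CPM (median 282) in NZO/HlLtJ, 307 to 572 (median 337) in CAST/EiJ and 191 to 271 (median 235) in C57BL/6J. All 8 CAST/EiJ libraries lay above all 8 C57BL/6J libraries, and 5 of 8 NZO/HlLtJ libraries lay below every CAST/EiJ library. The log2 change was 0.70 (SE 0.12, adjusted p = 0.0001765) in CAST/EiJ over C57BL/6J, with 0.47, 0.65 and 0.89 within ranges. It was -0.43 (SE 0.12, adjusted p = 0.006728) in NZO/HlLtJ over CAST/EiJ, with -1.13 and -0.68 within ranges. The value of -1.13 rests on a single CAST/EiJ library, female 10% fat replicate 2, the highest of its strain at 572 CPM. The difference of NZO/HlLtJ from C57BL/6J, 0.27 (adjusted p = 0.0967), was not called, but was called without either female CAST/EiJ 10% fat library (0.27 in each fit, adjusted p = 0.02365 without replicate 1 and 0.02358 without replicate 2). Timp3 lies inside Syn3 on the opposite strand and shares 1733 exonic bases with it, and its expected counts were fractional in nearly all libraries, so its level is uncertain. Syn3 itself stood at 0.35 CPM in CAST/EiJ and 0.61 CPM in C57BL/6J, a log2 change of -0.84. How reads of the shared bases were assigned is not given in the sources used here, so the Syn3 counts do not stand apart from those of Timp3. The part of these reads in the Timp3 differences was not tested.

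Timp4, the inhibitor most typical of heart muscle, was high and variable in NZO/HlLtJ. It had 29.3 to 69.6 CPM (median 55.4) in NZO/HlLtJ, 20.8 to 43.7 (median 31.8) in CAST/EiJ and 20.2 to 40.5 (median 29.8) in C57BL/6J. Of the 8 NZO/HlLtJ libraries, 5 lay above every C57BL/6J library and 5 above every CAST/EiJ library, while the lowest overlapped both strains. The log2 change was 0.76 (SE 0.19, adjusted p = 0.00796) over C57BL/6J, with 1.28 and 0.53 within ranges, and 0.71 (SE 0.19, adjusted p = 0.006336) over CAST/EiJ, with 0.38 and 1.02 within ranges. Timp4 lies inside Syn2 on the opposite strand and shares 90 exonic bases with it. Syn2 was at 7.02 CPM in NZO/HlLtJ, 18.6 in CAST/EiJ and 3.58 in C57BL/6J. Like Timp4 it was called higher in NZO/HlLtJ than in C57BL/6J (0.99), but unlike Timp4 it was called lower than in CAST/EiJ (-1.40). How strand was handled in counting is not given in the sources used here, and whether Syn2 reads entered the Timp4 counts was not tested.

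Timp1, the inducible inhibitor that rises in injured and inflamed tissue, was the scarcest inhibitor. It had 1.35 to 2.69 CPM (median 1.89) in NZO/HlLtJ, 1.43 to 3.61 (median 2.23) in CAST/EiJ and 0.80 to 2.10 (median 1.55) in C57BL/6J. The ranges of all strains overlapped. The difference of CAST/EiJ from C57BL/6J was called at 0.61 (SE 0.21, adjusted p = 0.01784), with 0.57, 0.07 and 0.82 within ranges. The call was lost, at 0.46 to 0.51, when any of 3 libraries was left out: male CAST/EiJ 44% fat replicate 1, female CAST/EiJ 10% fat replicate 2 or female C57BL/6J 44% fat replicate 2. NZO/HlLtJ differed from C57BL/6J by 0.35 (adjusted p = 0.2221) and from CAST/EiJ by -0.26 (adjusted p = 0.2817).

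Summed per kilobase of exon, the 4 TIMP genes came to 76.8 ± 9.48 CPM per kb in NZO/HlLtJ, 77.0 ± 10.99 in CAST/EiJ and 59.3 ± 4.82 in C57BL/6J (SD, n = 8 each). The makeup of the sum differed. Timp3 gave 45.5% ± 2.29 of it in NZO/HlLtJ, 60.8% ± 6.85 in CAST/EiJ and 48.8% ± 1.82 in C57BL/6J. Timp2 gave 40.8% ± 4.28 in NZO/HlLtJ, 28.8% ± 5.02 in CAST/EiJ and 40.0% ± 2.05 in C57BL/6J. The CAST/EiJ sum therefore leaned further towards the matrix-bound inhibitor, while Timp4 gave 10.9% in NZO/HlLtJ, 6.89% in CAST/EiJ and 8.37% in C57BL/6J. These shares describe the levels tested above, depend on the exon lengths used and carry no test of their own.

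**Figure D3:**
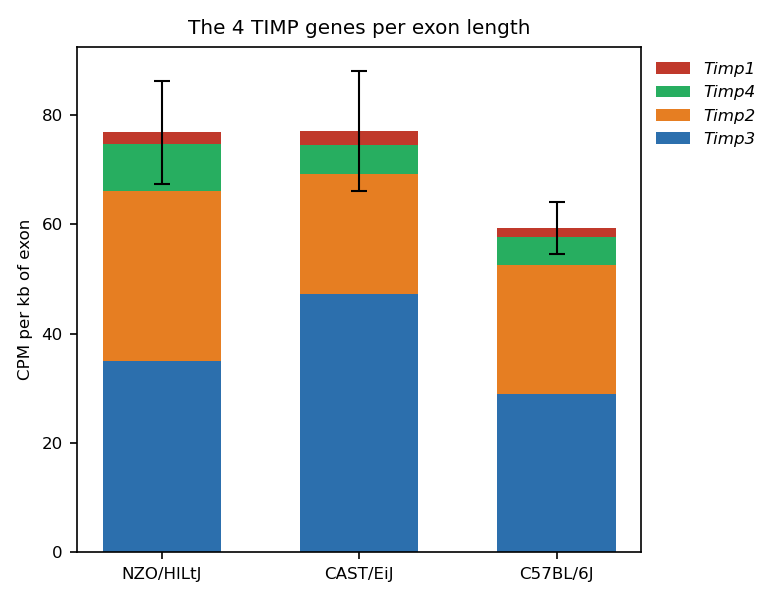
Stacked mean level of the 4 TIMP genes in CPM per kb of exon (y axis, from 0) in NZO/HlLtJ, CAST/EiJ and C57BL/6J hearts, with bars for the SD of the sum over 8 libraries. The sums of NZO/HlLtJ (76.8) and CAST/EiJ (77.0) are close, and the Timp3 layer is thickest in CAST/EiJ.

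The bases upstream of the start site are shown for 3 of the members with called strain differences, as the sequence in the reference strain of a gene low in CAST/EiJ (Mmp14), one high in CAST/EiJ (Timp3) and one high in NZO/HlLtJ (Timp4). The sequences are those of RefSeq on GRCm38.p6, the C57BL/6J reference, and variants of the other strains were not analysed here. Of the 10 members, 7 had a window in the table. The windows run 5′ to 3′ on the gene's strand and stop before any annotated exon. Capitals mark matches on either strand to the TATA box (TATAAA), the GC box (GGGCGG), the CCAAT box (CCAAT), the AP-1 site (TGANTCA) or the SMAD-binding element (GTCTAGAC).
Mmp14, chr14:54431348-54431597, plus strand: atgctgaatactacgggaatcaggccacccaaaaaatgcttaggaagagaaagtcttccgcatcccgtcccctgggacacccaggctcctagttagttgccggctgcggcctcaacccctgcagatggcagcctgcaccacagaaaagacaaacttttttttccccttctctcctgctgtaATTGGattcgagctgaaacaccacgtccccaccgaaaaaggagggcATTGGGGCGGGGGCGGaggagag
Timp3, chr10:86300162-86300371, plus strand: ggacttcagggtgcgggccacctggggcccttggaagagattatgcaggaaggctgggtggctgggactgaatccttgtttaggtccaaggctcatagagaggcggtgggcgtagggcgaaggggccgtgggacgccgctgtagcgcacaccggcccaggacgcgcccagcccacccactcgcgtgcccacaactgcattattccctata
Timp4, chr6:115252206-115252455, minus strand: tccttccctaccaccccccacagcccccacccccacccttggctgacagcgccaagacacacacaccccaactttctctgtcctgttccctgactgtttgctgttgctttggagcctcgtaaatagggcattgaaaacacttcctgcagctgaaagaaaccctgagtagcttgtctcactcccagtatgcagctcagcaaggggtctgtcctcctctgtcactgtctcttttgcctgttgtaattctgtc
The 250 bases before Mmp14 held 2 GC boxes, starting at -19 and -13 from the RefSeq start, and 2 CCAAT boxes read on the other strand (ATTGG), starting at -69 and -23. The second CCAAT box shares 1 base with the first GC box. The Timp3 stretch of 210 bases and the Timp4 stretch of 250 bases held none of the 5 motifs, and the 40 bases before the Timp3 start that lie in a GENCODE exon, not shown, held 1 GC box at -15. Over all 32851 windows of 250 bases, 32.7% held a GC box, 33.8% a CCAAT box, 12.4% a TATA box, 6.75% an AP-1 site and 0.167% a SMAD-binding element. A match is a run of letters and not a measured binding site.

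Of the ligands, Tgfb2 and Tgfb3 differed between strains by small amounts and Tgfb1 did not differ detectably. Tgfb2, the ligand that shapes the valves of the developing heart, had 9.56 to 12.8 CPM (median 10.1) in NZO/HlLtJ, 8.17 to 12.9 (median 10.2) in CAST/EiJ and 6.62 to 10.3 (median 8.43) in C57BL/6J. It was higher than in C57BL/6J by 0.30 in NZO/HlLtJ (SE 0.086, adjusted p = 0.009733) and by 0.27 in CAST/EiJ (SE 0.086, adjusted p = 0.01113). Both differences are between overlapping ranges: 3 NZO/HlLtJ and 4 CAST/EiJ libraries lay above all C57BL/6J libraries. Within single title ranges the first was 0.47 and 0.26, and the second 0.32, 0.33 and 0.21. NZO/HlLtJ and CAST/EiJ differed by 0.03 (95% interval -0.15 to 0.21).

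Tgfb3 was the most abundant of the 3 ligands per kilobase, but this rank rests on exon length. In CPM, Tgfb3 averaged 18.9 and Tgfb1 18.7 over all libraries, with 3383 and 5042 exon bases. Tgfb3 had 17.6 to 23.8 CPM (median 21.2) in NZO/HlLtJ, 15.9 to 20.3 (median 17.5) in CAST/EiJ and 15.8 to 20.02 (median 18.3) in C57BL/6J. In NZO/HlLtJ, 5 of 8 libraries lay above all libraries of each other strain. The log2 change was 0.22 over C57BL/6J (SE 0.060, adjusted p = 0.006903), with 0.26 and 0.17 within ranges. Over CAST/EiJ it was 0.25 (SE 0.060, adjusted p = 0.001395), but within ranges it was -0.04 and 0.13, each from 1 matched pair of groups, so the pooled value was not met within either range. CAST/EiJ and C57BL/6J differed by -0.03 (95% interval -0.15 to 0.10).

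Tgfb1, the ligand most studied in scarring, had 15.6 to 22.2 CPM (median 19.9) in NZO/HlLtJ, 15.2 to 25.0 (median 17.5) in CAST/EiJ and 16.5 to 21.4 (median 18.5) in C57BL/6J. The differences were 0.06 in NZO/HlLtJ over C57BL/6J (95% interval -0.10 to 0.22), -0.04 in CAST/EiJ over C57BL/6J (-0.20 to 0.12) and 0.10 in NZO/HlLtJ over CAST/EiJ (-0.06 to 0.26). All 3 ranges overlapped, and the intervals allow differences of up to 0.26 on the log2 scale. The difference of NZO/HlLtJ from CAST/EiJ was called without female CAST/EiJ 44% fat replicate 1 (0.18, adjusted p = 0.0326), the library with the highest CAST/EiJ level, and with the title range in the model (0.19, adjusted p = 0.03514). Tgfb3 made up 52.3% of the summed ligand level per kilobase in NZO/HlLtJ, 49.5% in CAST/EiJ and 50.7% in C57BL/6J, so the mix of ligands moved little. The size of these shares depends on the exon lengths used.

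Lox, the enzyme that starts the crosslinking of collagen and elastin, was the lowest member per kilobase. It had 4.27 to 11.8 CPM (median 6.34) in NZO/HlLtJ, 4.55 to 7.84 (median 5.48) in CAST/EiJ and 4.62 to 6.76 (median 5.82) in C57BL/6J. A single male NZO/HlLtJ library on 44% fat, at 11.8 CPM, stood above the next, at 7.06 CPM. The strain differences were 0.17 (95% interval -0.08 to 0.42), 0.05 (-0.20 to 0.29) and 0.13 (-0.12 to 0.38) in the order NZO/HlLtJ over C57BL/6J, CAST/EiJ over C57BL/6J and NZO/HlLtJ over CAST/EiJ. None was called.

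The diets left no detectable mark on the 10 genes. With 44% against 10% fat, 0 of 10 members were called in NZO/HlLtJ, in CAST/EiJ, in C57BL/6J or over the 3 strains together, and 0 had even an unadjusted p under 0.05 in edgeR. Of all genes tested, 0% were called in NZO/HlLtJ and in CAST/EiJ, 0.0407% in C57BL/6J (0.0349% higher, 0.00581% lower) and 0.157% over the 3 strains (0.128% higher, 0.0291% lower), so diet called few genes of any kind. DESeq2 and limma-voom also called 0 members in each of these comparisons. The unadjusted p was under 0.05 for 1233 genes in NZO/HlLtJ, 1137 in CAST/EiJ, 966 in C57BL/6J and 1515 over the strains. Over the 3 strains the member with the smallest p was Mmp2, at 0.08 (95% interval -0.02 to 0.18, adjusted p = 0.6691), and the 95% intervals of the 4 most abundant members excluded a mean change beyond 0.38 in size. The diet effect did not differ detectably between strains for any member either: 0 of 10 were called in each of the 3 comparisons of diet effects, where 0.00581% of all genes were called for NZO/HlLtJ against C57BL/6J and 0% in the other 2.

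**Figure D4:**
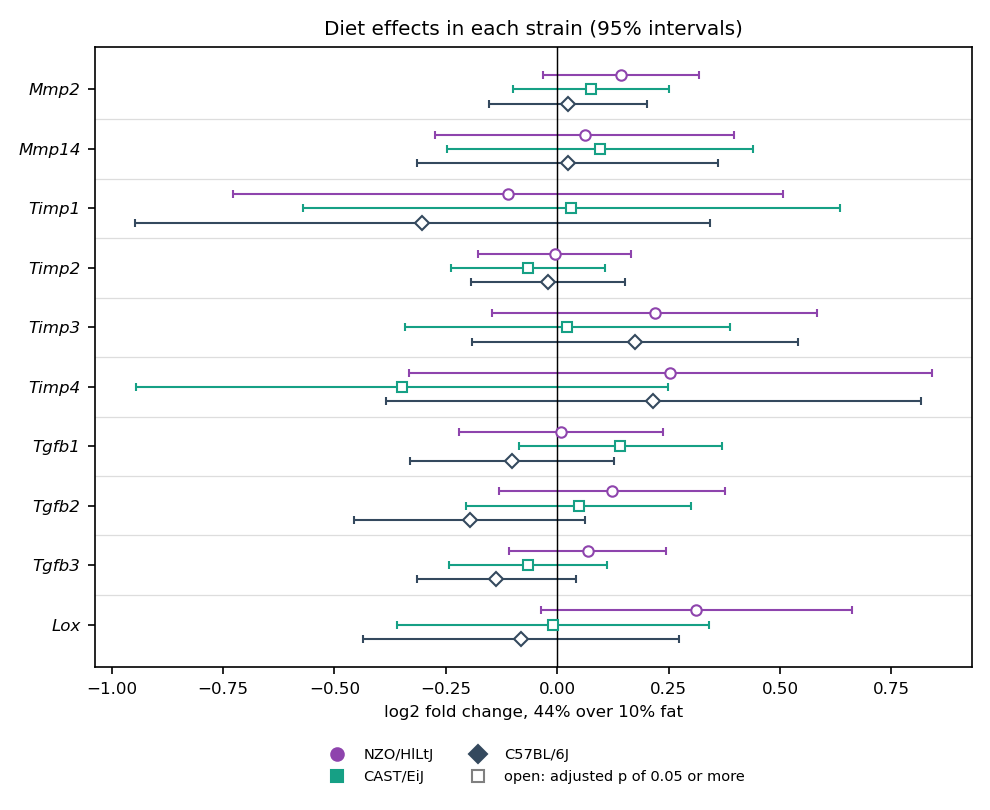
Log2 fold change of 44% over 10% fat (x axis) for each gene in NZO/HlLtJ (purple circles), CAST/EiJ (green squares) and C57BL/6J (dark diamonds), with 95% intervals. All 30 intervals include 0 and all symbols are open; the widest belong to Timp1 and Timp4.

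The proteases show what the spread allowed. Mmp2 averaged 86.0 ± 9.65 CPM on 44% fat and 77.6 ± 4.87 on 10% fat in NZO/HlLtJ (SD, n = 4 each), a log2 change of 0.14 (95% interval -0.03 to 0.32). The same values were 78.1 ± 8.88 and 74.0 ± 6.07 in CAST/EiJ, and 52.9 ± 6.51 and 51.9 ± 5.21 in C57BL/6J, with changes of 0.08 and 0.02. The 44% fat values overlapped the 10% fat values in each strain. Mmp14 changed by 0.06 in NZO/HlLtJ, 0.10 in CAST/EiJ and 0.02 in C57BL/6J, with intervals reaching 0.40, 0.44 and 0.36.

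The inhibitors gave intervals of very different width. Timp2 was the tightest, with changes of -0.01 in NZO/HlLtJ (95% interval -0.18 to 0.17), -0.07 in CAST/EiJ (-0.24 to 0.11) and -0.02 in C57BL/6J (-0.19 to 0.15). Timp3 averaged 308 ± 40.9 CPM on 44% fat and 263 ± 40.9 on 10% fat in NZO/HlLtJ, a change of 0.22 (-0.15 to 0.58). Timp4 averaged 54.9 ± 12.7 on 44% fat and 45.4 ± 18.4 on 10% fat in NZO/HlLtJ, and 27.5 ± 7.27 and 34.8 ± 8.79 in CAST/EiJ. Its changes had opposite signs, 0.25 in NZO/HlLtJ and -0.35 in CAST/EiJ, but the difference of these diet effects, 0.60, had an interval from -0.23 to 1.44 (adjusted p = 0.9735). Timp1 changed by -0.11 in NZO/HlLtJ, 0.03 in CAST/EiJ and -0.30 in C57BL/6J, with intervals more than 1 log2 unit wide.

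Among the ligands and Lox, the values differed in sign between strains without passing a test. Tgfb1 changed by 0.01 in NZO/HlLtJ, 0.14 in CAST/EiJ and -0.10 in C57BL/6J. Tgfb2 changed by 0.12, 0.05 and -0.20, and Tgfb3 by 0.07, -0.07 and -0.14, in the same order of strains. For all 10 members the diet effect in NZO/HlLtJ minus that in C57BL/6J was positive, though none was called. The median was 0.11, against -4e-04 over all genes, and the largest was 0.39 for Lox (95% interval -0.10 to 0.89). The 10 values come from the same libraries, so their shared sign is not a set of independent results. Lox averaged 7.43 ± 3.14 CPM on 44% fat and 5.80 ± 0.95 on 10% fat in NZO/HlLtJ, and the higher mean rests on the library at 11.8 CPM.

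Between the sexes, 0 of 10 members were called over strains and diets, against 0.372% of all genes (0.198% higher and 0.174% lower in males). In edgeR, 2 members had an unadjusted p under 0.05, and DESeq2 and limma-voom called 0. Lox was higher in males than in females by 0.33 (95% interval 0.13 to 0.53, adjusted p = 0.219), at 7.76 ± 2.80 CPM in males and 5.46 ± 1.09 in females of NZO/HlLtJ, 6.30 ± 1.28 in males and 5.69 ± 1.48 in females of CAST/EiJ, and 6.46 ± 0.26 in males and 5.06 ± 0.37 in females of C57BL/6J (SD, n = 4 each). In C57BL/6J each male library lay above each female one, while the ranges overlapped in the other strains and the highest CAST/EiJ library was a female, at 7.84 CPM. Timp2 was higher in males by 0.13 (0.04 to 0.23, adjusted p = 0.3614). Neither passed the correction over all genes.

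The rest of the protease system was compared with lists chosen with earlier results of these data known. Of 15 other metalloproteinases tested, 3 were higher and 1 lower in NZO/HlLtJ relative to C57BL/6J, near the 35.5% of all genes. In CAST/EiJ, 2 were higher and 8 lower than in C57BL/6J, and in NZO/HlLtJ 10 were higher and 1 lower than in CAST/EiJ, where 29.7% and 30.5% of all genes were called in those directions. The genes that fell in CAST/EiJ include Mmp3, a stromelysin that activates other proenzymes, at 0.68 ± 0.24 CPM in CAST/EiJ and 4.59 ± 0.51 in C57BL/6J (-2.78, SE 0.28, adjusted p = 3.474e-07). Mmp9, the gelatinase of white blood cells, fell to 0.40 ± 0.13 CPM in CAST/EiJ, against 1.48 ± 0.50 in C57BL/6J (-1.86, adjusted p = 5.604e-07), and Mmp13, a collagenase, fell by 2.99 (adjusted p = 6.636e-06) at under 1 CPM throughout. In NZO/HlLtJ, Mmp23 averaged 6.57 ± 0.78 CPM, against 4.31 ± 0.61 in C57BL/6J (0.61, adjusted p = 1.765e-05), and Mmp19 rose by 0.68 (adjusted p = 0.000421). Of the 2 gelatinases, Mmp2 was thus higher and Mmp9 lower in CAST/EiJ than in C57BL/6J.

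Of 23 ADAM and ADAMTS proteases tested, 8 were higher and 3 lower in NZO/HlLtJ relative to C57BL/6J, and 9 higher and 6 lower in CAST/EiJ, where 35.5% and 58.8% of all genes were called. Adam17, the sheddase of membrane-bound ligands and a target of TIMP3, stood at 57.6 ± 3.65 CPM in NZO/HlLtJ, 57.1 ± 3.42 in CAST/EiJ and 38.5 ± 1.58 in C57BL/6J (0.58 and 0.57 over C57BL/6J, adjusted p = 1.035e-08 and 4.366e-09). As for Mmp2, all libraries of both strains lay above those of C57BL/6J. Adamts2, which trims the amino end of procollagen, rose by 0.52 in NZO/HlLtJ (adjusted p = 1.507e-08), and Adam19 averaged 40.4 ± 4.15 CPM in NZO/HlLtJ, 127 ± 25.9 in CAST/EiJ and 81.1 ± 8.33 in C57BL/6J. Adamts8 was at 26.01 ± 8.90 CPM in CAST/EiJ and 2.78 ± 1.66 in C57BL/6J (3.20, adjusted p = 1.117e-07). With diet over the 3 strains, Adamts9 alone of the list was called. It averaged 36.7 ± 11.9 CPM on 44% fat and 30.02 ± 2.04 on 10% fat in NZO/HlLtJ, 35.9 ± 5.68 and 23.8 ± 2.05 in CAST/EiJ, and 34.97 ± 3.73 and 28.4 ± 2.49 in C57BL/6J. The log2 change over the strains was 0.38 (SE 0.066, adjusted p = 0.02944), and the call was lost in 14 of 24 fits that left out 1 library.

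Of 15 other protease regulators, 6 were higher and 3 lower in NZO/HlLtJ relative to C57BL/6J (35.5% of all genes called), and 8 higher and 3 lower in CAST/EiJ (58.8% called). Reck, a membrane-anchored inhibitor of MMP2, MMP9 and MMP14, rose by 0.25 in NZO/HlLtJ (adjusted p = 0.001979). Ctsk, the collagen-cutting cathepsin K, rose by 0.74 in NZO/HlLtJ and 0.57 in CAST/EiJ over C57BL/6J (adjusted p = 5.158e-06 and 4.32e-05). The broad inhibitor A2m fell to 0.87 ± 0.26 CPM in NZO/HlLtJ, against 2.87 ± 1.28 in C57BL/6J (-1.69, adjusted p = 0.0001386). Serpine2, an inhibitor of serine proteases, was the single gene of the pathway lists called between the sexes, at 24.8 ± 5.19 CPM in males and 18.8 ± 5.30 in females (0.42, adjusted p = 0.0006319). Of the fibroblast markers, Lum was called lower in males (-0.27, adjusted p = 0.02548), a call lost in 12 of 24 fits that left out 1 library.

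Of 15 other lysyl oxidase family and crosslinking genes tested, 9 were higher and 2 lower in NZO/HlLtJ relative to C57BL/6J, and 7 higher and 5 lower in CAST/EiJ, beside 35.5% and 58.8% of all genes. Pcolce2, an enhancer of procollagen C-proteinase, averaged 43.9 ± 3.74 CPM in NZO/HlLtJ, 42.6 ± 2.39 in CAST/EiJ and 15.7 ± 1.72 in C57BL/6J (1.49 and 1.45, adjusted p = 1.521e-14 and 5.892e-15). Its relative Pcolce fell in CAST/EiJ to 25.4 ± 2.70 CPM, against 36.4 ± 1.92 in C57BL/6J. Loxl1, a lysyl oxidase of elastic fibres, was at 42.1 ± 3.08 CPM in NZO/HlLtJ and 32.2 ± 1.88 in C57BL/6J (0.39, adjusted p = 7.675e-05), and Loxl4 rose by 1.05 in NZO/HlLtJ (adjusted p = 5.684e-05).

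In the TGF-beta pathway beyond the ligands, Tgfbr2, the receptor that binds the ligands first, averaged 81.0 ± 4.84 CPM in NZO/HlLtJ, 74.8 ± 6.20 in CAST/EiJ and 58.7 ± 2.79 in C57BL/6J (0.46 and 0.35 over C57BL/6J, adjusted p = 5.89e-08 and 9.2e-07). Of 16 receptors and SMAD genes, 7 were higher and 1 lower in NZO/HlLtJ relative to C57BL/6J, and 8 higher and 2 lower in CAST/EiJ. Of 15 genes of ligand storage and release, 4 were higher and 2 lower in NZO/HlLtJ, and 6 higher and 5 lower in CAST/EiJ. For both lists the share of all genes called was 35.5% in NZO/HlLtJ and 58.8% in CAST/EiJ. Thbs1, an activator of the latent ligand, averaged 20.7 ± 5.07 CPM in NZO/HlLtJ, 32.3 ± 3.89 in CAST/EiJ and 25.7 ± 4.51 in C57BL/6J, with opposite changes of -0.34 and 0.33 over C57BL/6J (adjusted p = 0.001938 and 0.0008842). Ltbp1, which tethers the latent ligand to the matrix, fell by 0.28 in NZO/HlLtJ (adjusted p = 7.359e-05).

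Of 19 genes known to respond to TGF-beta, 6 were higher and 1 lower in NZO/HlLtJ relative to C57BL/6J, 3 higher and 6 lower in CAST/EiJ than in C57BL/6J, and 9 higher and 1 lower in NZO/HlLtJ than in CAST/EiJ. Counted in either direction, these are near or below the shares of all genes called, 35.5%, 58.8% and 60.3%. By direction, 17.9% of all genes were higher and 17.6% lower in NZO/HlLtJ over C57BL/6J. The shares were 29.1% and 29.7% in CAST/EiJ over C57BL/6J, and 30.5% and 29.8% in NZO/HlLtJ over CAST/EiJ. In both NZO/HlLtJ comparisons the list was called higher more often than all genes, and lower less often. This excess was not tested. The fibrillar collagens led in NZO/HlLtJ: Col1a1 averaged 235 ± 22.4 CPM in NZO/HlLtJ, 155 ± 26.8 in CAST/EiJ and 141 ± 9.36 in C57BL/6J (0.74 over C57BL/6J, adjusted p = 1.717e-08). Postn, a matricellular protein of activated fibroblasts, fell in CAST/EiJ to 22.3 ± 3.30 CPM, against 54.3 ± 8.33 in C57BL/6J (-1.29, adjusted p = 1.094e-09). Acta2, smooth muscle actin, went the other way from the collagens in NZO/HlLtJ, at 84.8 ± 14.1 CPM, against 126 ± 27.7 in C57BL/6J (-0.56, adjusted p = 0.003901). Col1a1 and Col3a1 are also fibroblast markers, so this list and the next overlap.

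In bulk tissue, more cells of a type and more RNA per cell cannot be told apart, and markers of fibroblasts, a main source of MMP2 and TIMP2, moved with strain. Of 12 fibroblast markers, 11 were higher and 0 lower in NZO/HlLtJ relative to C57BL/6J (median 0.47), 1 higher and 5 lower in the CAST/EiJ to C57BL/6J comparison (median -0.08), and 11 higher in NZO/HlLtJ than in CAST/EiJ. Of all genes tested, 35.5%, 58.8% and 60.3% were called in these comparisons, in that order. Their summed level was 2958 to 3724 CPM in NZO/HlLtJ, 1809 to 2198 in CAST/EiJ and 2191 to 2489 in C57BL/6J, and none of them was at 0. Gsn, at a median of 1091.6 CPM over all libraries, was the largest part of this sum, with Dcn next at 352.8. Both were called lower in CAST/EiJ than in C57BL/6J (-0.45 and -0.48), while Lum was called higher (0.26). The sum and the ratios to it therefore weigh Gsn most. Set against this sum, Mmp2 came to 25.4 ± 1.06 per 1000 CPM of marker RNA in NZO/HlLtJ, 39.0 ± 2.61 in CAST/EiJ and 22.5 ± 2.90 in C57BL/6J. In CAST/EiJ, Mmp2 was therefore high while the marker sum was low, and in NZO/HlLtJ both were high. Timp2 came to 37.7 ± 2.49 in NZO/HlLtJ, 43.6 ± 4.10 in CAST/EiJ and 39.5 ± 3.35 in C57BL/6J, and Tgfb3 to 6.55 ± 0.41, 9.11 ± 0.91 and 7.74 ± 0.77. The part of the fibroblast markers in the NZO/HlLtJ differences was not tested.

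**Figure D5:**
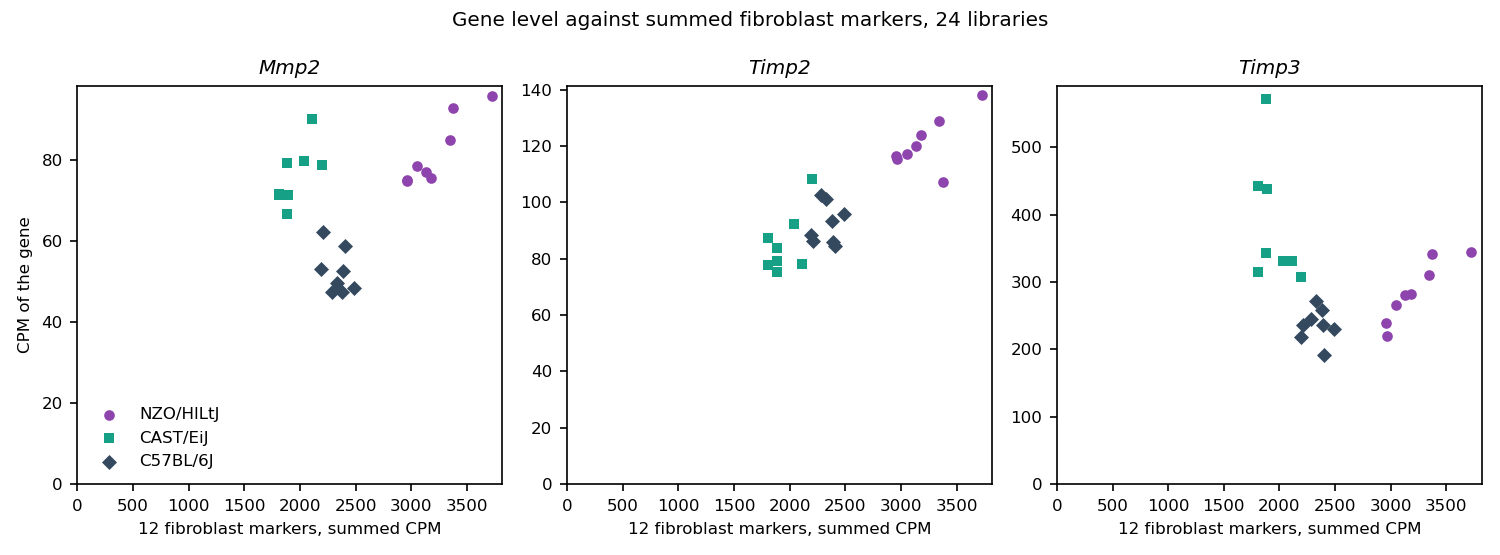
Level of Mmp2, Timp2 and Timp3 in CPM (y axes, from 0) against the summed CPM of 12 fibroblast markers (x axis, from 0) in the 24 libraries, coloured by strain. NZO/HlLtJ points lie at the right, at 2958 to 3724 CPM, and CAST/EiJ points at the left, where Mmp2 and Timp3 are nevertheless above C57BL/6J. Gsn is the largest part of the marker sum.

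Other marker sums also differed between strains, and their part in the results was not tested. Of all genes tested, 35.5% were called in NZO/HlLtJ over C57BL/6J (17.9% higher, 17.6% lower). The share was 58.8% in CAST/EiJ over C57BL/6J (29.1% higher, 29.7% lower) and 60.3% in NZO/HlLtJ over CAST/EiJ (30.5% higher, 29.8% lower). Smooth muscle and pericyte markers summed to 807.6 to 948.8 CPM in NZO/HlLtJ, 618.8 to 772.8 in CAST/EiJ and 847.6 to 1048 in C57BL/6J. Timp3 was highest in CAST/EiJ, where this sum of 10 markers was lowest, with 3 of them called higher and 4 lower than in C57BL/6J. Rgs5, at a median of 478.4 CPM over all libraries, was the largest part of the sum. It was among those called lower in CAST/EiJ (-1.20), so the sum weighs this 1 gene most. Schwann cell markers summed to 24.4 to 30.9 CPM in NZO/HlLtJ and 14.8 to 22.4 in C57BL/6J, with 6 of 8 called higher. Skeletal muscle markers summed to 2557 to 4824 CPM in NZO/HlLtJ and 1333 to 1735 in C57BL/6J, nearly all of it Acta1 and Ckm, which heart muscle also expresses, while Tnnt3, Myh4, Actn3 and Pvalb were at or near 0. The T and NK cell sum was 1.28 to 4.30 CPM in NZO/HlLtJ, 0.293 to 1.40 in CAST/EiJ and 1.22 to 3.03 in C57BL/6J, with 0 of 9 markers called higher and 6 lower in CAST/EiJ against C57BL/6J, where Mmp9 also fell. Platelet and megakaryocyte markers had 1 of 8 called higher and 6 lower in the same comparison. Of 10 macrophage markers, 0 were called higher and 4 lower in NZO/HlLtJ, and 1 higher and 5 lower in CAST/EiJ, each against C57BL/6J, with overlapping sums. In both comparisons the share of macrophage markers called in either direction was near that of all genes. Atrial sums overlapped too, but 8 of 8 atrial markers had positive changes in NZO/HlLtJ against each other strain, 1 of them called over C57BL/6J and 4 over CAST/EiJ.

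The tested genes with at least 1 CPM whose centred log2(CPM + 0.5) values lay closest to each member over the 24 libraries were sought among 12053 genes. The nearest to Mmp2 were Tbc1d23 and Tgfbr2, with mean absolute differences of 0.098 and 0.108, where Mmp2 itself deviated from its mean by 0.263. Timp2 was followed most closely by Dse, which modifies dermatan sulfate, at 0.095, and Rcn1 at 0.097. Timp3 was followed by Ramp2, a receptor partner of vessel cells, at 0.127, and Synj2 at 0.129. Mmp14 was nearest to Nrbf2 and Sash1 (0.129 and 0.131), Tgfb3 to Pttg1ip and Ppm1b (0.082 and 0.084), and Tgfb1 to Rela and Tnks1bp1 (0.079 and 0.090). The nearest genes of the other members, with the member's own spread, were Pld1 and Egfr for Timp4 (0.230 and 0.231, spread 0.411), Znhit2 and Prkcdbp for Lox (0.160 and 0.164, spread 0.238), Tram1 and Adamtsl5 for Tgfb2 (0.107 and 0.108, spread 0.156), and Baiap2 and Ikbke for Timp1 (0.196 and 0.200, spread 0.291).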

How the data were processed

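The 24 libraries were made from polyA RNA of heart tissue, and the labels gave strain, sex and diet for each sample. The authors deposited expected counts per gene and log2-like variance-stabilized values. Per the submitters' processing notes, the build was GRCm38 and DESeq2 was used, with no version or role given, and the sources used here do not give the aligner, the counter or strand handling. Of the deposited expected counts 19.3% were not whole (tolerance 1e-06), and all were rounded. Genes were filtered with filterByExpr (minimum count 10, minimum total 15), which removed 3758 and left 17203, scaled by TMM (factors 0.954 to 1.06) and fitted with edgeR 4.0.16 (robust quasi-likelihood, 12 group means) in R 4.3.3. Strain and diet contrasts weighted groups equally, with Benjamini-Hochberg adjustment over all genes. The script was tested on simulated data. Replicates of a group differed by more than sampling noise (chi-square per degree of freedom 11.6 to 68.4).

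Alternatives were DESeq2 1.42.0 and limma-voom (limma 3.58.1), other scaling and filters, removal of mitochondrial genes, the title range as a block, leaving out each library, values within title ranges and, added after seeing the data, limma on the deposited log2-like values. All 10 members are named in every comparison, and of each other list up to 3 genes per direction and comparison with the smallest adjusted p among those called, as space allows. The members and lists were chosen with earlier results of these data known. Exons and overlaps came from GENCODE M21, promoters from RefSeq on GRCm38.p6.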

Additional observations from a re-analysis of the deposited data

Results flagged for a closer look

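Among 90 groups of libraries examined over the 10 genes, 6 had a highest library that stood far from the others by Dixon's test, where chance gives about 1 in 20. Mmp2 reached 84.9 CPM in 1 female NZO/HlLtJ library on 10% fat, against 75.6 in the next. Mmp14 reached 20.7 CPM in 1 male NZO/HlLtJ library on 10% fat, against 16.7 in the next. Timp3 and Tgfb3 stood out in the same female CAST/EiJ library on 10% fat, at 571.7 CPM against 342.5 and at 20.3 CPM against 17.5. Tgfb1 reached 25.0 CPM in 1 female CAST/EiJ library on 44% fat, against 19.0 in the next CAST/EiJ library. Lox reached 11.8 CPM in 1 male NZO/HlLtJ library on 44% fat, against 7.06 in the next NZO/HlLtJ library.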

How the results depend on the processing

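No paired analysis was possible because the labels carry no replicate numbers. No member's diet, interaction or sex result passed the threshold under any alternative run. Over CAST/EiJ, the NZO/HlLtJ difference of Tgfb3 turned to -0.041 within title range 2, from 1 matched pair of groups. The CAST/EiJ side of that pair is the female 10% fat library flagged above for Tgfb3, at 20.3 CPM. The cause was not tested. The member calls that changed are given beside their results. DESeq2 called more genes over all than edgeR: 9 for diet in NZO/HlLtJ, 29 in CAST/EiJ, 30 in C57BL/6J and 101 over the strains, 4, 9 and 3 for the interactions NZO/HlLtJ against C57BL/6J, CAST/EiJ against C57BL/6J and NZO/HlLtJ against CAST/EiJ, and 128 between the sexes. With the title range as a block, diet called 4 in CAST/EiJ and 17 over the strains, and the CAST/EiJ against C57BL/6J interaction 4. With limma on the deposited values, diet called 2 in NZO/HlLtJ and 4 in CAST/EiJ, and the NZO/HlLtJ against C57BL/6J interaction 2, which limma-voom put at 0. RLE scaling gave 1 for the CAST/EiJ against C57BL/6J interaction. Leaving out 1 library gave 0 to 113 diet calls in NZO/HlLtJ, 0 to 18 in CAST/EiJ, 1 to 21 in C57BL/6J and 4 to 144 over the strains, 0 to 3, 0 to 8 and 0 to 4 for the interactions in the order above, and 39 to 79 between the sexes. Timp1 had the fewest counts, 28 to 147 per library.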
